A study of Sus scrofa with 20 samples.

Results

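FASN, SCD, ELOVL6, FADS2 and DGAT2L6 encode enzymes that build and modify the fatty acids and esters of sebum. They were taken by symbol through the Ensembl pig identifiers of the deposited gene table, and all 5 symbols were found among its 19280 identifiers: FASN (ENSSSCG00000029944), SCD (ENSSSCG00000010554), ELOVL6 (ENSSSCG00000036236), FADS2 (ENSSSCG00000013072) and DGAT2L6 (ENSSSCG00000012381). The series compared RNA from skin of 4 body sites by RNA sequencing: the flank, the snout, the sole (volar foot in the labels) and the upper foot (dorsal foot in the labels). Each of 5 female wild-type Yorkshire pigs, described as adults and with no treatment named, gave 1 biopsy of 4 mm per site, stored in RNAlater, for 20 libraries of 34077823 to 66906424 counts. The question was how gene expression differs between sole, trunk, upper foot and snout skin.

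By library number the pigs form 2 sets, a first set of pigs aged 4, 7 and 8 months (12 libraries) and a second set of pigs aged 5 and 6 months (8 libraries). Set and age cannot be told apart. The labels of the sets disagreed. Over the 2000 most variable genes, the second-set libraries labelled flank correlated best with the first-set sole (Pearson r across genes 0.870 and 0.873), those labelled volar with the snout (0.830 and 0.773), those labelled dorsal with the flank (0.807 and 0.841) and those labelled snout with the upper foot (0.860 and 0.820). The site picked was the same in 8 of 8 libraries when 111 lipid, sebocyte and adipocyte genes, including the 5 described here, were left out. No library was moved to another group for the tests within a set. First-set sites are those of the labels, second-set tests compare the libraries as labelled, and the matched site is given beside each second-set label. Flank and upper foot were the sites least separated by the match. Dorsal-labelled libraries had r of 0.746 and 0.623 for their next site, the upper foot. Snout-labelled libraries had r of 0.636 and 0.682 for theirs, the flank. Levels are CPM, counts per 1000000 counts of a library after scaling by the trimmed mean of M values (TMM), and a member is called where the adjusted p of edgeR's quasi-likelihood test over all genes was under 0.05.

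Sebum is made by sebocytes, cells of the gland attached to the hair follicle that fill with lipid and then burst into the duct. Fatty acid synthase builds palmitate, elongases and desaturases lengthen it and insert double bonds, and acyltransferases join the products into triglycerides and wax esters. Sole skin lacks hair follicles and, with them, the sebaceous glands attached to them. The same early steps of fatty acid synthesis run in adipocytes, which lie under and around the follicles. In bulk biopsies, fewer cells of a type and less RNA per cell cannot be told apart.

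Of the 5 genes, 4 had their highest mean level in flank skin over the matched sites, and FADS2 was level in flank and snout. In the first set the upper foot was above the flank in 2 of 3 pigs for FASN and SCD and in 1 of 3 for ELOVL6. In the second set the flank-matched libraries were above the upper-foot-matched ones in 2 of 2 pigs for these 3 genes. Flank against upper foot was called for none of the 5 genes in either set. For DGAT2L6 the flank mean was raised by 1 library at 34.7 CPM. Its medians were 7.97 CPM in the flank and 7.42 CPM in the snout, and these sites did not differ by a called amount. None was called higher in the sole than in the flank. In the first set, 4 of the 5 were lower in the sole than in the flank: ELOVL6, DGAT2L6, FASN and FADS2. The background of genes called lower in that comparison was 16% of 15302 genes, and 32.9% were called in either direction. In the second set, 5 of 5 were higher in the libraries labelled dorsal (flank by match) than in those labelled flank (sole by match), against a background of 25.3% called higher and 46.7% in either direction. The 2 sets share no pig. The first-set count rested on 1 library, the flank of the 8-month pig, which stood apart for FASN, SCD and ELOVL6. Without it 1 of the 5 was called lower in the sole than in the flank, DGAT2L6 (adjusted p = 0.0137). With all 20 libraries at matched sites but without that one, a fit added after seeing the data, 5 of 5 were. The share of all genes called was not computed for either fit. With that library kept, the matched fit called 29.1% of all genes lower and 55% in either direction.

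**Figure D1:**
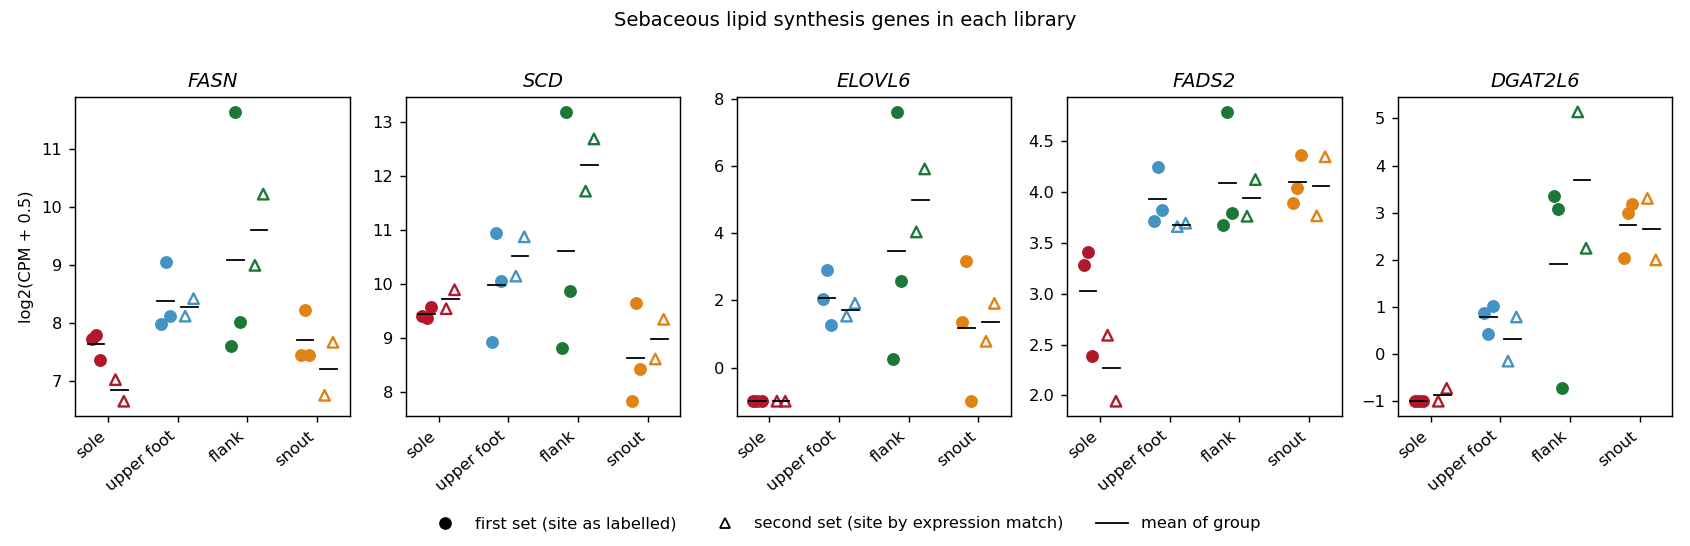
Level of each gene in each of the 20 libraries, as log2(CPM + 0.5), at the sole, upper foot, flank and snout. Filled circles are first-set libraries at their labelled site, open triangles are second-set libraries at their matched site, and bars are group means. ELOVL6 sits at the floor in all 5 sole libraries, and 1 first-set flank library lies far above the other 2 for FASN, SCD and ELOVL6.

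FASN, the synthase that makes palmitate from malonyl-CoA, was present at every site. In the first set, with the pigs given in the order 4, 7 and 8 months, it stood at 213, 165 and 222 CPM in the sole, 252, 278 and 533 CPM in the upper foot, 194, 258 and 3199 CPM in the flank, and 175, 174 and 299 CPM in the snout. The flank of the 8-month pig was far above every other library, and the other 2 flank libraries lay within or just above the range of the sole. FASN was lower in the sole than in the flank by edgeR's quasi-likelihood test (log2 fold change -2.61 ± 0.90, SE, adjusted p = 0.0469), but lower in only 2 of 3 pigs. Without the 8-month flank library the difference was -0.20 (adjusted p = 0.713), and with the pig as block it was -1.75 (adjusted p = 0.0921). The call held in 2 of the 12 fits that left out 1 library, those without the flank of the 4-month or of the 7-month pig. DESeq2 gave FASN no adjusted p in this comparison.

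Second-set FASN stood at 100 and 130 CPM in the libraries labelled flank (sole by match), for the pigs of 5 and 6 months in that order. It reached 1197 and 511 CPM in those labelled dorsal (flank), 343 and 278 CPM in those labelled snout (upper foot), and 203 and 108 CPM in those labelled volar (snout). Neither flank-matched library overlapped any library matched to another site. The dorsal-labelled libraries were above the flank-labelled ones by 2.90 ± 0.47 log2 units (adjusted p = 0.00259), and the volar-labelled ones were below the dorsal-labelled ones (-2.47 ± 0.46, adjusted p = 0.0166). The snout-labelled libraries (upper foot) were above the flank-labelled ones (sole) by 1.42 ± 0.45 (adjusted p = 0.0389), a call lost without any 1 of those 4 libraries. The call of volar against dorsal labels was lost without the 6-month volar-labelled library (adjusted p = 0.0997).

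SCD, the desaturase that puts the first double bond into stearate and palmitate, was abundant in every library. In the first set it measured 680, 756 and 663 CPM in the sole, 486, 1063 and 1959 CPM in the upper foot, 447, 928 and 9273 CPM in the flank, and 227, 345 and 795 CPM in the snout. The sole libraries were the most even, and the flank ranged from below the sole to far above it. The sole-to-flank difference of -2.35 ± 0.99 was not called (edgeR adjusted p = 0.0927), and it was 0.01 (adjusted p = 0.995) without the 8-month flank library and -2.87 (adjusted p = 0.0310) without the 4-month one. Snout was below flank in 3 of 3 pigs, with an uncalled difference of -2.96 ± 1.01 (adjusted p = 0.0819).

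Second-set SCD measured 948 and 743 CPM in the flank-labelled libraries (sole), 6556 and 3357 CPM in the dorsal-labelled (flank), 1869 and 1129 CPM in the snout-labelled (upper foot), and 649 and 390 CPM in the volar-labelled (snout). The order within each pig was the same, from flank through upper foot and sole to snout by matched site. The dorsal-labelled libraries were above the flank-labelled ones by 2.56 ± 0.43 (edgeR adjusted p = 0.00309) and the volar-labelled ones below the dorsal-labelled ones by -3.27 ± 0.45 (adjusted p = 0.0055). With the pig as block, 4 more SCD differences were called. They were volar against flank labels (-0.75, adjusted p = 0.0139), volar against snout labels (-1.53, adjusted p = 0.00359), snout against flank labels (0.77, adjusted p = 0.0111) and snout against dorsal labels (-1.72, adjusted p = 0.0364).

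ELOVL6, the elongase that turns palmitate into stearate, had no count in any of the 5 sole libraries. These are the 3 labelled volar in the first set and the 2 labelled flank (sole by match) in the second. In the first set it stood at 3.59, 1.89 and 7.04 CPM in the upper foot, 0.695, 5.44 and 194 CPM in the flank, and 2.08, 0 and 8.46 CPM in the snout. Second-set values were 59.6 and 15.9 CPM in the dorsal-labelled libraries (flank), 3.26 and 2.39 CPM in the snout-labelled (upper foot), and 3.26 and 1.22 CPM in the volar-labelled (snout). The highest 3 of the 20 values were flank or flank-matched libraries, but the flank of the 4-month pig was lower than its snout and upper foot.

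Folds against a group without a count are lower bounds, computed with 3 counts over the group. ELOVL6 was at least 2886-fold lower in the first-set sole than in the flank (edgeR adjusted p = 0.0244), a group mean carried by the 8-month pig. Without that library the adjusted p was 0.0564, and the call was also lost without any 1 of the 3 sole libraries (highest adjusted p 0.0637). Second-set ELOVL6 was at least 636-fold higher in the dorsal-labelled (flank), at least 47.7-fold higher in the snout-labelled (upper foot) and at least 37.7-fold higher in the volar-labelled libraries (snout) than in the flank-labelled ones (sole), with adjusted p of 0.00142, 0.0102 and 0.0144. The snout-matched call was lost without either flank-labelled library or without the 5-month volar-labelled one (highest adjusted p 0.0607). Volar labels were also below dorsal labels (-4.07 ± 0.78, adjusted p = 0.0248), a call lost without either volar-labelled library or without the 5-month dorsal-labelled one (highest adjusted p 0.128). First-set sole and upper foot did not overlap either, and that comparison was not called (adjusted p = 0.116). It passed with the pig as block (adjusted p = 0.0492), by DESeq2 (0.000762), without the 8-month flank library (0.0456) and with all 20 libraries at matched sites (0.00872).

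FADS2, a fatty acid desaturase, varied least among the sites. First-set levels were 9.2, 4.73 and 10.1 CPM in the sole, 12.6, 13.7 and 18.4 CPM in the upper foot, 12.3, 13.3 and 27.1 CPM in the flank, and 14.3, 20.1 and 15.9 CPM in the snout. Second-set levels were 3.35 and 5.53 CPM under the flank label (sole), 12.4 and 12.1 CPM under the snout label (upper foot), 16.9 and 13 CPM under the dorsal label (flank), and 19.8 and 13.1 CPM under the volar label (snout). In both sets every sole or sole-matched library was below every library of the other 3 sites, and those 3 overlapped one another in the first set.

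For FADS2 the first-set sole was below the flank by -1.13 ± 0.35 (edgeR adjusted p = 0.0294) in 3 of 3 pigs, and the difference was -0.70 (adjusted p = 0.108) without the 8-month flank library. The call was also lost without the 7-month sole library. Against the snout the difference was -1.07 ± 0.35 (adjusted p = 0.0739, and 0.0407 with the pig as block). Second-set libraries labelled flank (sole) were the low group in 3 comparisons: the dorsal-labelled were above them by 1.77 ± 0.31 (adjusted p = 0.00371), the volar-labelled by 1.89 ± 0.31 (adjusted p = 0.00411) and the snout-labelled by 1.47 ± 0.31 (adjusted p = 0.00893). FADS2 was called in no comparison that left out the sole, in either set.

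DGAT2L6, an acyltransferase of the diacylglycerol acyltransferase 2 family, showed another pattern. It had no count in the 3 first-set sole libraries and measured 1.33, 1.54 and 0.849 CPM in the upper foot, 9.7, 0.105 and 7.97 CPM in the flank, and 3.63, 8.61 and 7.42 CPM in the snout. Second-set levels were 0.105 and 0 CPM under the flank label (sole, 3 counts in all), 4.24 and 34.7 CPM under the dorsal label (flank), 1.23 and 0.402 CPM under the snout label (upper foot), and 3.49 and 9.37 CPM under the volar label (snout). The snout was above the upper foot in every pig, and the flank ran from the lowest value outside the sole, in the 7-month pig, to the highest of all, in the 6-month pig.

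DGAT2L6 was the only one of the 5 genes called below each other site in the first-set sole: at least 256-fold below the flank (edgeR adjusted p = 0.00488), at least 53.5-fold below the upper foot (adjusted p = 0.0219) and at least 283-fold below the snout (adjusted p = 0.0122). The upper-foot call was lost without any 1 of the 3 sole libraries or without the 7-month upper foot (highest adjusted p 0.0590). In the second set, where the flank-labelled group held 3 counts, the ratio of pooled levels was 279 (95% counting interval 95.4 to 1352) for the dorsal label and 94.0 (32.2 to 456) for the volar label, with adjusted p of 0.00568 and 0.0174. The second of these calls was lost without either flank-labelled library or without the 6-month volar-labelled one (highest adjusted p 0.0921). For the snout label (upper foot) it was 14.9 (5.09 to 72.2), and the difference was not called (adjusted p = 0.133).

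Beyond sole against flank, the first set gave few calls. Sole against upper foot and sole against snout each called 1 of 5 members, DGAT2L6, where 10.1% and 5.85% of all genes were called lower and 24.1% and 11.6% in either direction. Snout against flank called 0 of 5 by edgeR (13.2% of all genes called), with 2 at an unadjusted p under 0.05 and 1 by DESeq2. Snout against upper foot (7.92%) and upper foot against flank (0.131%) called 0 of 5, with 0 at an unadjusted p under 0.05 and 0 by DESeq2. DESeq2 gave FASN no adjusted p in any first-set comparison. In an F test for any difference between the 4 sites, DGAT2L6 passed (adjusted p = 0.0153) and ELOVL6 (0.0533), FASN (0.0763), FADS2 (0.0922) and SCD (0.101) did not, against 30.4% of all genes.

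All 5 passed the test for any site in the second set (adjusted p 0.00277 to 0.0121), against 44.5% of all genes. Volar against flank labels (snout against sole) called ELOVL6, DGAT2L6 and FADS2 higher, where 20.9% of all genes were called higher and 38.5% in either direction. Snout against flank labels (upper foot against sole) called ELOVL6, FASN and FADS2 higher, against 22.6% and 42.9%. Volar against dorsal labels (snout against flank) called ELOVL6, FASN and SCD lower, against 5.35% and 13%. Volar against snout labels (snout against upper foot) called 0 of 5 by edgeR (10.2% of all genes), with 2 at an unadjusted p under 0.05 and 1 by DESeq2. Snout against dorsal labels (upper foot against flank) called 0 of 5 (0.0393%), with 4 at an unadjusted p under 0.05 and 4 by DESeq2. The shares of all genes at an unadjusted p under 0.05 or by DESeq2 were not computed in either set.

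The disagreement of the labels was visible in these genes. With a term for site by set, 13 of 30 differences between sets were called when the sites were taken as labelled, and 0 of 30 when they were taken as matched (edgeR, lowest adjusted p 0.455, a fit added after seeing the data). As labelled, 49.1% of all genes differed between sets for volar minus flank, 3.71% for volar minus dorsal, 10.9% for volar minus snout, 43.4% for snout minus flank, 2.45% for snout minus dorsal and 39% for dorsal minus flank. As matched, the shares were 0.941%, 0.496%, 0.267%, 0%, 0% and 0% in the same order. The matched sites were chosen by likeness of expression between the sets. Fewer differences as matched are thus built in and are no check of the match. ELOVL6 had no count in the sole group of either set, so its matched sole differences could not be called. A fit of all 20 libraries with sites as labelled called 0 of 5 in each of the 6 comparisons. The share of all genes called in it was not computed, so this count is not read as particular to the members.

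With all 20 libraries at matched sites and the set as a term, the sole was below the flank for 5 of 5 members, against 29.1% of all genes called lower and 55% in either direction. Its groups rest on the match, and it is given as an alternative to the fits within sets. Differences were -2.71 ± 0.57 for FASN, -2.43 ± 0.62 for SCD and -1.35 ± 0.26 for FADS2, with edgeR adjusted p of 0.000672, 0.00282 and 0.000267. DGAT2L6, ELOVL6 and FADS2 were also below the upper foot and below the snout, where 24.2% and 20.7% of all genes were called lower and 48.9% and 39.7% in either direction. Snout was below flank for FASN (-2.48 ± 0.57), SCD (-3.08 ± 0.63) and ELOVL6 (-4.18 ± 1.29), against 13.2% called lower and 28.9% in either direction. DGAT2L6 was above the upper foot in the snout (2.55 ± 0.81, adjusted p = 0.03), against 13.4% called higher and 22.2% in either direction. Upper foot against flank called 0 of 5 (1.42% of all genes), with 4 at an unadjusted p under 0.05. Without the 8-month flank library, a fit added after seeing the data, the sole was still below the flank for 5 of 5, and ELOVL6 was no longer called in snout against flank. The share of all genes called was not computed for that fit. For any site, 5 of 5 passed, against 60.3% of all genes.

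**Figure D2:**
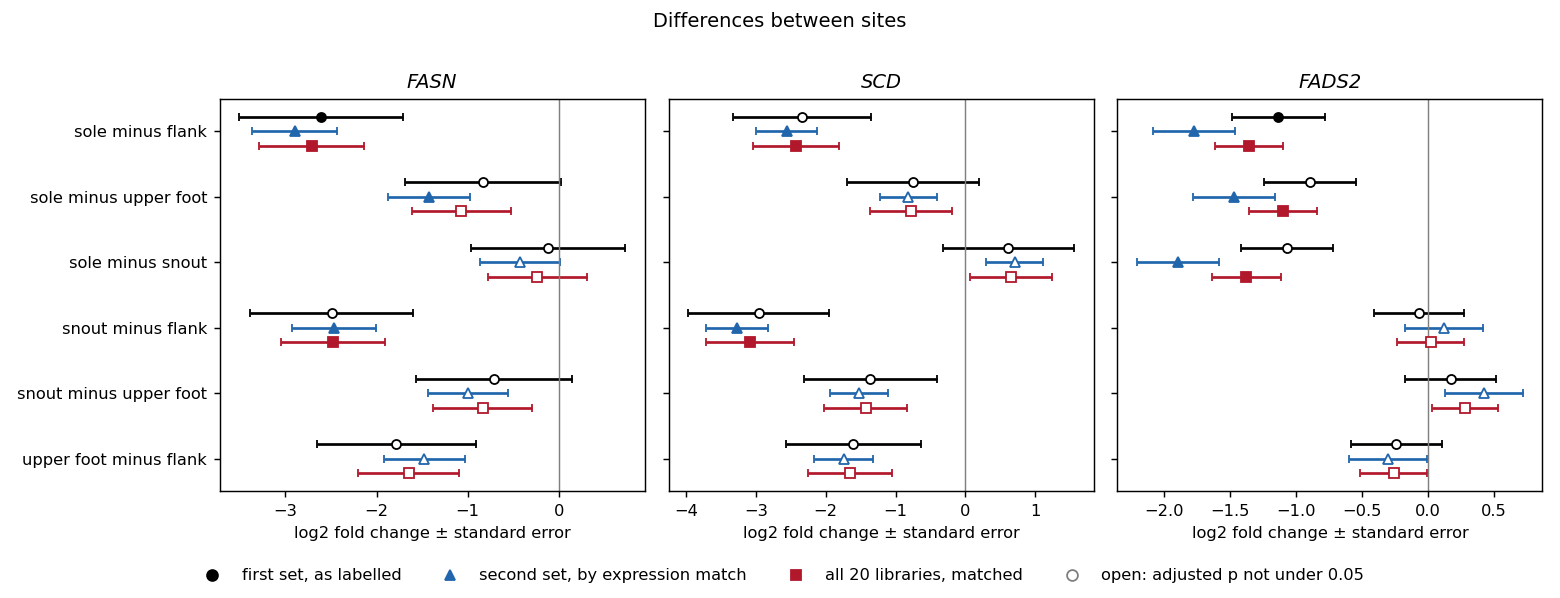
Log2 fold changes ± standard error of FASN, SCD and FADS2 for the 6 site pairs in the first set (circles), the second set by matched site (triangles) and all 20 libraries at matched sites (squares). Open symbols did not pass an adjusted p of 0.05. FADS2 passed in the sole pairs of the second set and of the matched fit, and in the first set only against the flank (adjusted p = 0.0874 against the upper foot and 0.0739 against the snout).

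Over the 5 libraries of each matched site, mean FASN was 1072 ± 1254 CPM (SD, n = 5) in the flank, 337 ± 114 in the upper foot, 192 ± 69.6 in the snout and 166 ± 52.2 in the sole. No neighbours in that order differed by the matched fit. Mean SCD ran from 4112 ± 3767 CPM in the flank through 1301 ± 614 in the upper foot and 758 ± 113 in the sole to 481 ± 234 in the snout, again without a called difference between neighbours. For FADS2 the snout (16.6 ± 3.19 CPM), flank (16.5 ± 6.15) and upper foot (13.8 ± 2.62) did not differ by a called amount, and the sole (6.58 ± 2.93) was below all 3.

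Mean ELOVL6 was 55.1 ± 81.1 CPM (SD, n = 5) in the flank, 3.63 ± 2.02 in the upper foot and 3.00 ± 3.27 in the snout, and 0 in the sole. Mean DGAT2L6 was 11.4 ± 13.6 CPM in the flank, 6.50 ± 2.78 in the snout and 1.07 ± 0.448 in the upper foot. Flank and upper foot differed by a called amount for neither gene. Against the 3 counts of DGAT2L6 in the 5 sole libraries, the pooled ratio was 560.5 (95% counting interval 192 to 2718) for the flank, 376 (129 to 1824) for the snout and 68.6 (23.5 to 333) for the upper foot.

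FASN, SCD and ELOVL6 varied together over libraries, and DGAT2L6 less so. As a description over libraries that share pigs, Pearson r of log2(CPM + 0.5) was taken within each library set. For FASN with SCD it was 0.93 in the first set (12 libraries) and 0.93 in the second (8 libraries). For FASN with ELOVL6 it was 0.89 and 0.95. It was 0.04 and 0.31 for DGAT2L6 with SCD, and 0.68 and 0.64 for DGAT2L6 with FADS2.

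Most sebocyte markers were lower in the sole than in the flank, but their summed level overlapped between those sites in the second set. Of 23 sebocyte markers, 16 were in the table, with DGAT2L6 among them. In the first set 12 were lower in the sole than in the flank and 2 were higher, FAR2 and ACSBG1, and the median log2 difference was -4.33 (-3.58 with genes without a count at their bound) against -0.05 over all genes. In the second set 11 were higher and 2 lower under the dorsal label (flank) than under the flank label (sole). Of all genes, 16% were called lower and 16.9% higher in the first comparison, and 25.3% higher and 21.4% lower in the second. KRT79, a keratin of the sebaceous duct, stood at 0.177 to 0.822 CPM in the 5 sole libraries and 6.80 to 140 CPM elsewhere. MC5R and AWAT2, a receptor and a wax synthase of sebocytes, stayed at or under 0.781 CPM in every library. The summed sebocyte markers reached 116 to 210 CPM in the first-set sole and 214 to 317 CPM in the flank, and 270 to 360 and 280 to 468 CPM at the matched sites of the second set. ACSBG1 made up most of the second-set sole sums, with 204 and 318 CPM under the flank label for the pigs of 5 and 6 months. Under the dorsal label (flank) it stood at 41.9 and 48.2 CPM, so the overlap of the sums largely reflects this gene. Without a count in the sole were AWAT2, DGAT2L6 and GAL in the first set and MC5R, PPARG and GAL in the second.

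Of 15 adipocyte markers, 14 were in the table, and 9 were lower and 0 higher in the first-set sole than in the flank (median -3.91). The shares of all genes called were 16% lower and 16.9% higher. Their sum was 182 to 314 CPM in the first-set sole, 768 to 1070 in the upper foot, 504 to 3949 in the flank and 246 to 457 in the snout. Second-set sums were 251 to 315 under the flank label (sole), 1036 to 1109 under the snout label (upper foot), 1235 to 2529 under the dorsal label (flank) and 307 to 536 under the volar label (snout). The flank of the 8-month pig, the high library for FASN, SCD and ELOVL6, was also the highest for adipocyte markers, at 3949 CPM. ADIPOQ, the adipocyte hormone adiponectin, averaged 495 CPM in the first-set flank and 7.21 CPM in the sole. No adipocyte marker was without a count in the first set, and 1, PPARG, was without a count under the flank label of the second.

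Over libraries, r with the summed adipocyte markers was 0.87 and 0.96 for FASN, 0.78 and 0.88 for SCD, and 0.86 and 0.91 for ELOVL6 in the first and second sets. It was 0.75 and 0.61 for FADS2 and 0.41 and 0.38 for DGAT2L6. With the summed sebocyte markers, r was 0.43 and 0.07 for DGAT2L6, which is one of them, 0.55 and 0.18 for ELOVL6, 0.47 and 0.33 for FASN, 0.47 and 0.40 for SCD, and 0.50 and -0.01 for FADS2. That sum is weighted towards ACSBG1 in the sole, which ran against most of the list. With KRT79 alone, r was 0.73 and 0.78 for FADS2, 0.66 and 0.62 for DGAT2L6, 0.59 and 0.71 for ELOVL6, 0.42 and 0.65 for FASN, and 0.29 and 0.45 for SCD. The part of adipocytes or sebocytes in the site differences was not tested. Skeletal muscle markers (14 of 20 in the table) summed to 10746 CPM in the 7-month snout and to 5237 and 8455 CPM under the volar label of the second set, and to at most 218 CPM in the other 17 libraries, and their part in the snout differences was not tested. Keratinocyte markers (12 of 16 in the table) summed to 283627 to 639302 CPM in the 5 sole libraries and 18295 to 45360 CPM elsewhere, and the part of this in the lower values of the sole was not tested.

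**Figure D3:**
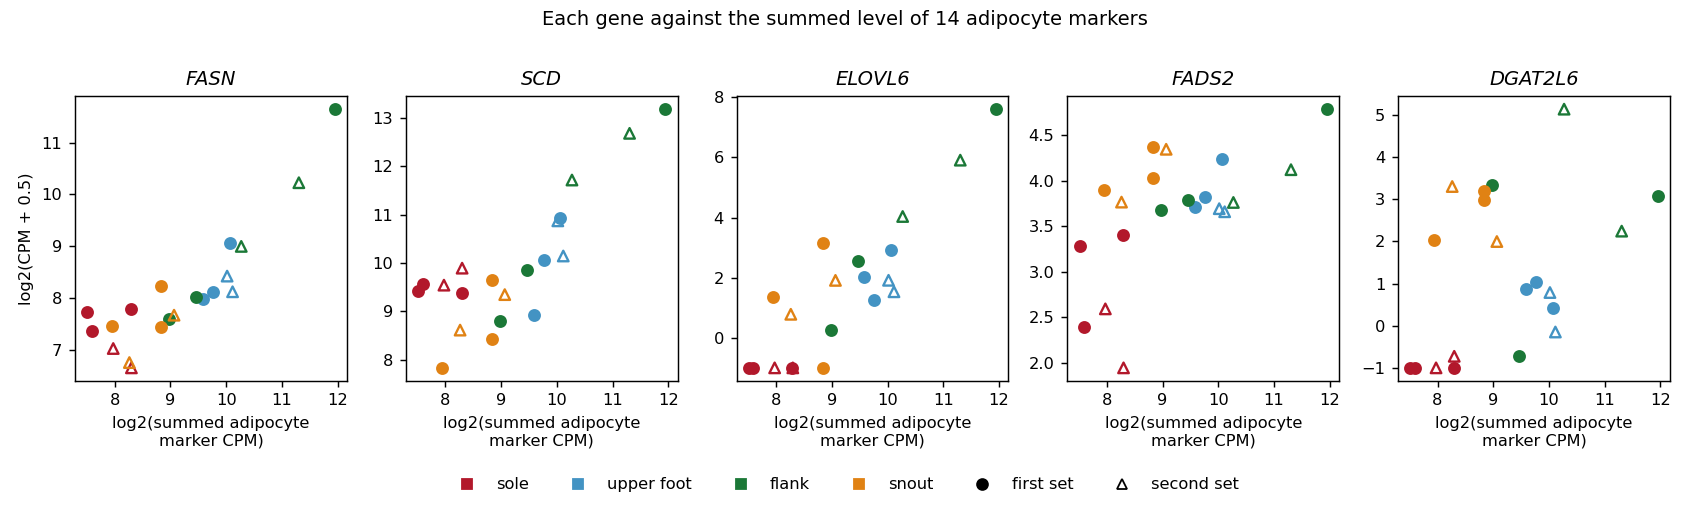
Each gene, as log2(CPM + 0.5), against the log2 of the summed CPM of 14 adipocyte markers in each library. Colours give the site (second set by match), circles the first set and triangles the second. FASN, SCD and ELOVL6 rise with the marker sum, and DGAT2L6 spreads widely at a given sum.

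The genes most like the members were found by Pearson r with the mean standardised level of the 5 over the 12 first-set libraries, among 9810 genes. The 10 highest were ELOVL5 (r = 0.98 in the first set and 0.93 over the 8 second-set libraries), SFRP5 (0.96 and 0.92), NEIL2 (0.94 and 0.89), PAICS (0.94 and 0.89), MYOC (0.94 and 0.83), ALDH6A1 (0.93 and 0.95), THRSP (0.93 and 0.96), TMED1 (0.93 and 0.91), TSPAN13 (0.93 and 0.85) and TRARG1 (0.93 and 0.94). ELOVL5 is an elongase of polyunsaturated fatty acids, and THRSP is a nuclear protein of lipogenic tissue. Mean THRSP was 220 CPM in the first-set flank, 32.9 in the upper foot, 8.88 in the snout and 1.76 in the sole. Mean ELOVL5 was 84.8, 39.9, 39.6 and 26.1 CPM in the same order.

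Other enzymes of fatty acid synthesis and modification held calls in both directions between sole and flank. Of 25 in the table, 8 were lower and 3 higher in the first-set sole, where 16% of all genes were called lower and 16.9% higher. The median was -0.50 against -0.05 over all genes. The lower ones were ACLY, ACSS2, THRSP, ACSL4, ELOVL3, ELOVL5, ELOVL7 and FADS1. ELOVL3, an elongase of sebaceous glands, averaged 0.051 CPM in the sole and 3.07 CPM in the flank (-5.96 ± 1.40, adjusted p = 0.00839). ACSL4, which activates long-chain fatty acids, averaged 4.86 ± 2.70 CPM (SD, n = 3) against 17.6 ± 2.18, and ELOVL7, another elongase, 10.3 ± 5.04 against 23.3 ± 9.15. Under the dorsal label (flank) 10 of 25 were higher and 4 lower than under the flank label (sole) in the second set, against 25.3% and 21.4% of all genes. ELOVL7 was not called there (edgeR, -0.06 ± 0.54, adjusted p = 0.942).

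The 3 that were higher in the first-set sole were FABP5, FADS6 and ELOVL1. FABP5, the fatty acid binding protein of keratinocytes, averaged 2584 ± 533 CPM (SD, n = 3) in the sole, 1913 ± 44.0 in the snout, 454 ± 69.8 in the upper foot and 277 ± 37.4 in the flank. ELOVL1, an elongase of very long chain fatty acids, averaged 79.8 ± 14.3 CPM in the sole and 34.5 ± 4.70 in the flank. FADS6, a desaturase family member, averaged 89.8 ± 18.0 and 22.6 ± 2.95 CPM. These 3 were also higher under the flank label (sole) than under the dorsal label (flank) of the second set, with edgeR adjusted p of 0.000117, 0.000343 and 0.000374.

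Genes of ester synthesis were split. Of 17 in the table, 6 were higher and 6 lower in the first-set sole than in the flank, and 7 were higher and 5 lower under the dorsal label (flank) than under the flank label (sole) in the second set. The shares of all genes were 16.9% higher and 16% lower in the first comparison, and 25.3% and 21.4% in the second. PLIN2, the coat protein of lipid droplets, averaged 56.6 ± 8.11 CPM (SD, n = 3) in the first-set sole and 126 ± 16.8 in the flank. GPAM, which starts glycerolipid synthesis, averaged 17.5 ± 4.38 and 44.4 ± 6.13 CPM. FAR2 and FAR1, which make the fatty alcohols of wax esters, ran the other way, with 9.23 ± 0.784 and 67.4 ± 6.57 CPM in the sole and 2.35 ± 0.675 and 40.7 ± 1.22 CPM in the flank. AGPAT2, an acyltransferase of phosphatidic acid synthesis, averaged 117 ± 13.8 CPM in the sole and 27.8 ± 11.2 in the flank, and AGPAT3 115 ± 1.68 and 70.3 ± 10.6. FAR1 was not called in the second set (-0.22 ± 0.22, adjusted p = 0.449).

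Of 20 genes of cholesterol and squalene synthesis in the table, 7 were higher and 0 lower in the first-set sole than in the flank, with a median of 0.61, and 13 were not called. Of all genes 16.9% were called higher in that comparison. In the second set 10 were lower and 1 higher under the dorsal label (flank) than under the flank label (sole), with a median of -0.84, against 21.4% of all genes called lower. HMGCS1, an early enzyme of the mevalonate pathway, averaged 496 ± 157 CPM (SD, n = 3) in the first-set sole and 188 ± 6.19 in the flank. IDI1, the isopentenyl isomerase, averaged 122 ± 9.81 and 42.8 ± 10.6 CPM. Of the later sterol enzymes, MSMO1 averaged 188 ± 58.0 and 73.4 ± 8.61 CPM, CYP51A1 166 ± 26.5 and 83.7 ± 8.15 CPM, and DHCR7 85.2 ± 13 and 32.5 ± 13.9 CPM. ACAT2, which makes acetoacetyl-CoA, averaged 193 ± 19.1 and 106 ± 16.2 CPM in the first set and was not called in the second (-0.23 ± 0.46, adjusted p = 0.705).

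Among 14 regulators of lipid synthesis, 4 were higher and 5 lower in the first-set sole than in the flank, against 16.9% and 16% of all genes. SREBF1, the transcription factor that drives fatty acid synthesis genes, was not called in either set: it averaged 51.2 ± 10.8 CPM (SD, n = 3) in the first-set sole and 36.7 ± 16.4 in the flank (0.48 ± 0.28, adjusted p = 0.216). SREBF2, its relative of the sterol pathway, averaged 124 ± 9.59 and 80.3 ± 5.27 CPM (0.62 ± 0.11, adjusted p = 0.00144). PRDM1, a repressor found in sebaceous gland and differentiating epidermis, averaged 677 ± 182 and 78.1 ± 23.5 CPM. NR1H2, a sterol-sensing nuclear receptor, averaged 67.4 ± 6.18 and 52.0 ± 3.84 CPM.

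The lower regulators included INSIG1 and INSIG2, which hold SREBP precursors in the endoplasmic reticulum. INSIG1 averaged 28.5 ± 5.55 CPM (SD, n = 3) in the first-set sole and 65.3 ± 20.7 in the flank, INSIG2 18.8 ± 0.28 and 27.6 ± 2.38, and RXRA, the shared partner of nuclear receptors, 129 ± 12.4 and 179 ± 10.6. PPARG, which drives fat storage in adipocytes and sebocytes, averaged 0.390 CPM in the first-set sole and 5.15 CPM in the flank, where the 8-month pig reached 13.7 CPM, and was not called (adjusted p = 0.0616). Second-set PPARG had no count under the flank label (sole) and was at least 112-fold higher under the dorsal label (flank, adjusted p = 0.000285), and RXRA was not called (0.09 ± 0.22, adjusted p = 0.757).

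**Figure D4:**
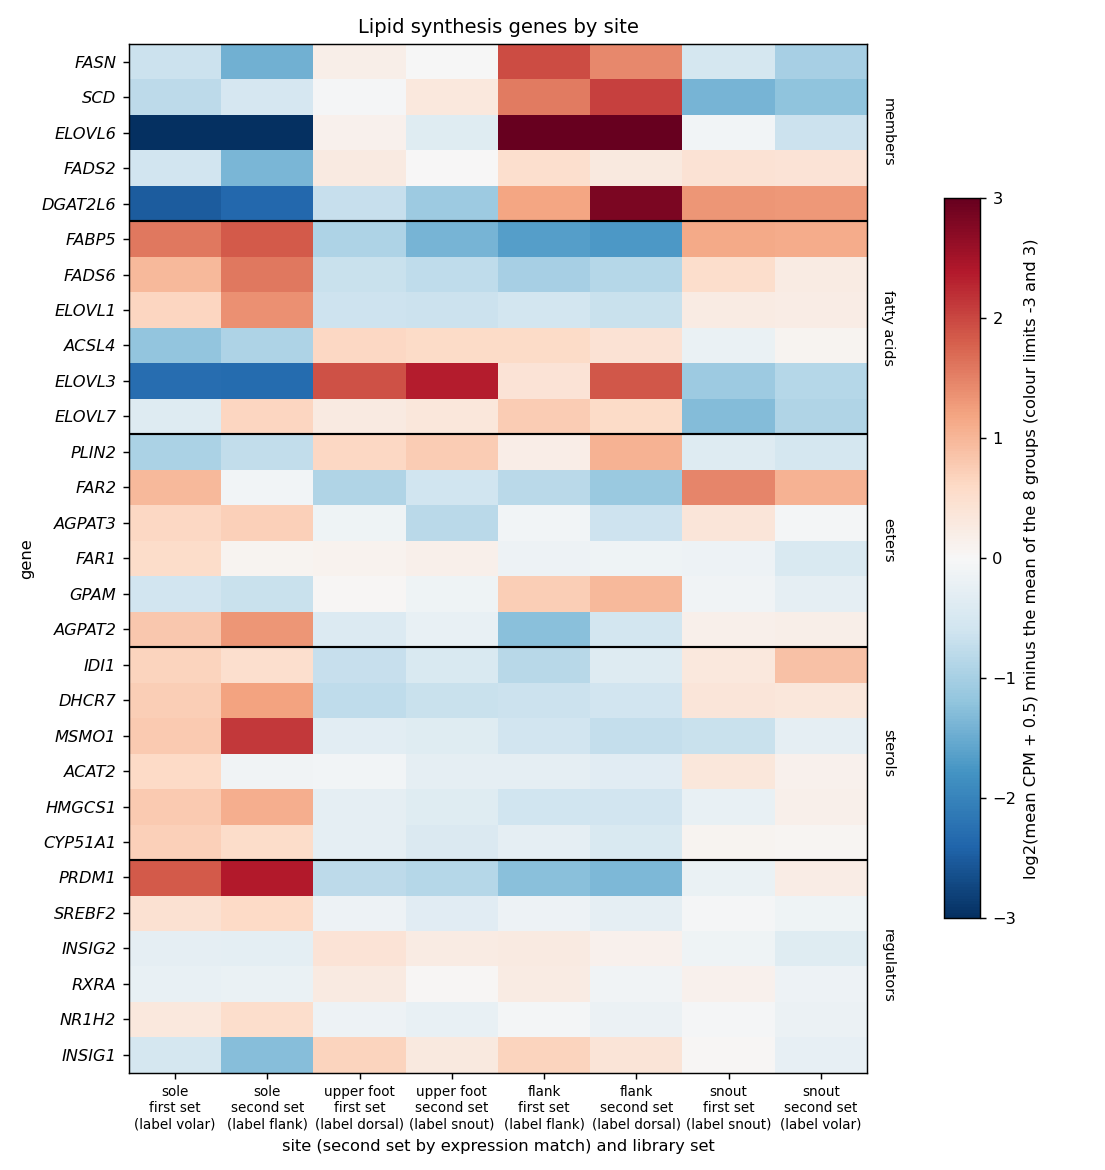
Mean level of the 5 members and of 24 other lipid genes in each group, as log2(mean CPM + 0.5) minus the mean of the 8 groups, with red above and blue below. Columns pair each first-set site with the second-set group matched to it, and the deposited label is given. The members are blue in both sole columns, while FABP5, PRDM1 and the sterol enzymes are red in the first-set sole column.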

How the data were processed

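Biopsies of 4 skin sites from 5 pigs were sequenced as TruSeq stranded mRNA, according to the protocols in the labels. The authors deposited estimated counts for each Ensembl gene identifier, obtained with Salmon per the submitters' processing notes. The Salmon version, genome build and annotation: not given in the sources used here. No coordinates are printed for that reason. Of the values 42.2% were not whole, and all were rounded before testing. Symbols came from the supplied gene name tables, which matched 14821 of 19280 identifiers.

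Members, lists and tests were chosen with earlier results of these data known. Sites were taken from the labels. Because the labels of the 2 library sets disagreed, each set was fitted alone with 1 mean per site. Tests used the robust quasi-likelihood method of edgeR 4.0.16 (R 4.3.3) after TMM scaling. Genes were kept by filterByExpr at a minimum count of 10 and a minimum total of 15, and p-values were adjusted by Benjamini and Hochberg's method, with calls at 0.05. The first set had 15302 genes and 8 residual degrees of freedom, and the second 15280 and 4. All 5 members passed the filter in both sets. The fit of all 20 libraries at matched sites had 15275 genes and 15 residual degrees of freedom. The tests were also run on simulated counts of unpaired libraries, with changes set in well-expressed genes. That run does not cover pairing by pig or groups with few or no counts.

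Every pig gave all 4 sites, per the labels, so libraries are paired by pig. As a check, departures from the site mean were correlated between libraries of the same pig. The median correlation was 0.22 (range -0.01 to 0.44) for first-set pairs and 0.31 (range 0.11 to 0.44) for second-set pairs. Alternatives were DESeq2 1.42.0, median-of-ratios and upper-quartile scaling, every gene with a count, the pig as block, each library left out, and all 20 libraries as labelled or as matched. The matched fits with the pig as block and without the 8-month flank library, and the site by set term, were added after seeing the data.

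Of each lipid list, up to 6 genes with the smallest adjusted p for any site in the first set were named, beside fixed markers. Depth ran from 34077823 to 66906424 counts per library. Floors (3 counts) and 95% intervals cover counting error only, since reads carry no molecular identifiers. The libraries of a site come from separate pigs.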

Additional observations from a re-analysis of the deposited data

Results flagged for a closer look

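In 5 of the 20 groups of 5 libraries (5 genes by 4 labelled sites), 1 library lay far from the others by Dixon's criterion. Its rate of about 1 in 20 by chance holds for normally spread values of 1 group. It does not hold for CPM in groups that mix matched sites, so the count is not weighed against it. Under the flank label the 8-month pig stood apart for FASN at 3199 CPM (next 258), for SCD at 9273 CPM (next 948) and for ELOVL6 at 194 CPM (next 5.44). The summed adipocyte markers of that library were 3949 CPM. Under the dorsal label the 5-month pig stood apart for ELOVL6 at 59.6 CPM (next 15.9) and the 6-month pig for DGAT2L6 at 34.7 CPM (next 4.24). These labelled groups mix libraries of both sets and so, by match, of more than 1 site. Both dorsal-labelled libraries named here are matched to the flank.

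Site differences that differed between the sets as labelled, by the site by set term, were 13. They are given as first-set minus second-set log2 difference with the edgeR adjusted p. For volar minus flank they were DGAT2L6 -18.00 (0.000467), FADS2 -3.03 (0.000326) and ELOVL6 -24.67 (0.00707). For volar minus snout it was DGAT2L6 -14.38 (0.00631). For snout minus flank they were SCD -3.79 (0.0365), FADS2 -1.54 (0.0287), FASN -3.92 (0.0208) and ELOVL6 -14.47 (0.0433). For dorsal minus flank they were SCD -4.15 (0.0272), DGAT2L6 -10.58 (0.00298), FADS2 -1.998 (0.00801), FASN -4.67 (0.00976) and ELOVL6 -17.95 (0.0143). Values of ELOVL6 and DGAT2L6 are fitted against groups with 0 to 3 counts and are no size of effect. With the sites as matched, 0 of 30 were called (lowest adjusted p 0.455), which is no check of the match, since it was made on expression.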

How the results depend on the processing

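Median-of-ratios and upper-quartile scaling kept the direction and call of 60 of 60 member differences. Testing every gene with a count lost 1, FASN in the first-set volar minus flank (adjusted p = 0.0612). Counts below are members called. The share of all genes called was computed for the main fits within sets and for all 20 libraries as matched. It was not computed for the other fits, including those with 1 library left out. Changes in their counts are thus not read as particular to the members. First-set volar minus flank went from 4 to 0 with all 20 libraries as labelled. Volar minus dorsal went from 1 to 3 by DESeq2, 2 with the pig as block, 0 as labelled, 3 as matched, 3 as matched with the block and 4 as matched without the 8-month flank. Volar minus snout went from 1 to 3, 2, 0, 3, 3 and 3 in the same order. Snout minus flank went from 0 to 1 by DESeq2 and 3, 3 and 2 in the 3 matched fits, and snout minus dorsal from 0 to 1, 2 and 1 in those fits. Second-set volar minus snout went from 0 to 1 by DESeq2 and 1 with the block, and snout minus dorsal from 0 to 4 and 1. The pairing by pig (block) changed the calls named in the report and left the other counts within 1.5 times. Causes were not tested.

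Leaving out 1 library gave 1 to 5 (volar minus flank), 0 to 3 (volar minus dorsal), 1 to 2 (volar minus snout), 0 to 2 (snout minus flank), 0 to 1 (snout minus dorsal) and 0 to 0 (dorsal minus flank) in the first set. The second set gave 1 to 3, 1 to 3, 0 to 1, 2 to 4, 0 to 0 and 5 to 5.

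Directions turned only for differences that were uncalled in both fits. First-set cases were FASN volar minus snout with the block (0.0034), SCD volar minus snout as labelled (-0.48), DGAT2L6 snout minus flank as matched (-0.64), with the block (-0.45) and without the 8-month flank (-0.70), and DGAT2L6 snout minus dorsal as labelled (-1.001). FADS2 snout minus flank turned with the block (0.034), as labelled (0.28), as matched (0.021), matched with the block (0.077) and matched without the 8-month flank (0.22). Dorsal minus flank turned as labelled for DGAT2L6 (1.24), SCD (0.12) and FADS2 (0.27). With 1 library left out, the ranges that crossed 0 in the first set were SCD volar minus flank (-2.87 to 0.0093), FASN volar minus snout (-0.25 to 0.19), ELOVL6 snout minus flank (-6.02 to 0.18), DGAT2L6 snout minus flank (-0.43 to 0.70), FADS2 snout minus flank (-0.27 to 0.38) and ELOVL6 snout minus dorsal (-2.01 to 0.36). So did dorsal minus flank for ELOVL6 (-4.61 to 0.45), FASN (-2.29 to 0.66), SCD (-2.20 to 0.78) and FADS2 (-0.44 to 0.23). In the second set they were FASN volar minus flank (-0.10 to 0.81), DGAT2L6 volar minus dorsal (-2.49 to 0.58), FADS2 volar minus dorsal (-0.20 to 0.39) and ELOVL6 volar minus snout (-1.21 to 0.20). With 2 pigs a site in the second set, removing a library leaves 1, assumed to vary like the other groups.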

Other observations

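Hair shaft and inner root sheath markers (15 of 21 in the table) were lower in the first-set sole than in the flank for 11 and higher for 0, with a median log2 difference of -9.57. The shares of all genes called were 16% lower and 16.9% higher. Their summed level was 16.3 to 35.8 CPM in the first-set sole, 519 to 7711 in the flank, 5898 to 15186 in the upper foot and 389 to 1133 in the snout. Second-set sums were 45.0 to 223 CPM under the flank label, 6667 to 18976 under the dorsal label, 11887 to 14660 under the snout label and 722 to 1292 under the volar label. KRT71, a keratin of the inner root sheath, averaged 0.086 CPM in the first-set sole and 1273 CPM in the flank.

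Sweat gland markers (14 of 17 in the table) were split, with 4 higher and 6 lower of 13 tested in the first-set sole against the flank. Of all genes 16.9% were called higher and 16% lower there. Their summed level was 1220 to 2790 CPM in the first-set sole and 421 to 768 CPM at the other sites, and 4828 to 6339 CPM under the flank label of the second set and 477 to 581 CPM under the other labels. Of 12 keratinocyte markers, 10 were higher and 2 lower in the first-set sole than in the flank, and 2 were higher and 10 lower under the dorsal label than under the flank label of the second set. For the second-set comparison the shares of all genes were 25.3% higher and 21.4% lower. Of 6 genes that mark body sites, 4 were higher and 1 lower in the first-set sole than in the flank.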
